A study of Mus musculus with 12 samples.

Results

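A group of 5 genes, surface landmarks of microglia and the ligand of one of them, was followed in hippocampal microglia between postnatal day 14 (P14) and postnatal day 28 (P28). They are Cx3cr1, the fractalkine receptor; Cx3cl1, its ligand fractalkine; Emr1, the adhesion receptor F4/80 that is now named Adgre1; Ptprc, the leukocyte common antigen CD45; and Entpd1, the ectonucleotidase CD39. The members were chosen by name, and all 5 of them were found among the 545 immune genes of the raw count table. The cells came from the hippocampus of male Balbc mice raised under control conditions, 6 at P14 and 6 at P28, each from another litter, and were purified by a Percoll gradient and flow sorting. RNA was measured on the nCounter mouse immune panel, which counts fluorescent barcodes on captured targets. The comparison asks how these genes differ between the ages, within a study of microglial maturation under early life stress; stressed animals were not analysed here.

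Microglia are the resident macrophages of the brain. In the brain, fractalkine is made mostly by neurons, as a membrane-bound chemokine that can be shed, and its receptor Cx3cr1 on microglia signals through inhibitory G proteins; the pair is known for its part in the recruitment of microglia and in synapse pruning in the young hippocampus. F4/80 is a classical macrophage surface antigen. CD45 is a receptor phosphatase that sets the activity of Src-family kinases, and its low surface level is used in sorting to tell microglia from blood leukocytes. CD39 breaks down extracellular ATP and ADP to AMP, which the enzyme CD73, encoded by Nt5e, can turn into adenosine.

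The bases before the start of the fractalkine pair, and before the start of Ptprc and Entpd1, whose levels varied together between P14 samples, are shown from RefSeq, build GRCm38.p6. Of the 5 genes, 4 had an entry there; Emr1 was not among them. Each sequence holds the 250 bases upstream of an annotated start, written 5′ to 3′ on the strand of the gene. Capitals mark GAGGAA, a core sequence bound by the myeloid factor PU.1, on either strand (TTCCTC on the other). The files name no build, and no binding was measured.
Cx3cr1, chr9:120068297-120068546, reverse strand: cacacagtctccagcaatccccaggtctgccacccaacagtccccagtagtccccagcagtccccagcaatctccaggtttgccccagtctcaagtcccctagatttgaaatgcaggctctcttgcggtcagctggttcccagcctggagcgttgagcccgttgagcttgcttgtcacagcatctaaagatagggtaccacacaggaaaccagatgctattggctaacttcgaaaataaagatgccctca
Cx3cl1, chr8:94771930-94772179, forward strand: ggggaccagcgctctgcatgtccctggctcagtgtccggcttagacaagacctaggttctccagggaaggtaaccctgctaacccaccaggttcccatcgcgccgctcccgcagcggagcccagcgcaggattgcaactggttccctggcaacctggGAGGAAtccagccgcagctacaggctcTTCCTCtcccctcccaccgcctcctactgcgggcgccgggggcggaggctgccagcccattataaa
Ptprc, first of 2 starts, chr1:138175306-138175555, reverse strand: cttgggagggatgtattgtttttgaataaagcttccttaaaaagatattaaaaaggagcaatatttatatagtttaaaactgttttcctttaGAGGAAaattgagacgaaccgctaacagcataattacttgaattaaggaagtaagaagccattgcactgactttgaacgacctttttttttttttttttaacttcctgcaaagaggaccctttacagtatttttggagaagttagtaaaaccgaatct
Entpd1, second of 2 starts, chr19:40659520-40659769, forward strand: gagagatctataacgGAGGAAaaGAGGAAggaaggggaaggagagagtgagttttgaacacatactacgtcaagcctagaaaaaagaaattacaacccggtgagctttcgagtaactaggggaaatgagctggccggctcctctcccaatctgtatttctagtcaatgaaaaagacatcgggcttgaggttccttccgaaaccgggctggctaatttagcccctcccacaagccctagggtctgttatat

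GAGGAA or its reverse complement was found in 23.3% of 32851 upstream windows of this length. The Cx3cr1 window held no match, the Cx3cl1 window held 2, beginning 93 and 66 bases before the start, the Ptprc window held 1 at 158 bases, and the Entpd1 window held 2 at 235 and 227 bases. For Ptprc and Entpd1 the start shown is the one with matches, and the other annotated start of each had 0. The windows shown were thus picked in part by their matches and are not set against the share of 23.3%. All are matches of letters and not measured sites.

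Levels are given as scaled counts, the raw barcode count divided by a factor for the sample made from 6 reference genes. Every log2 fold change sets P28 over P14. Those printed with an SE come from the quasi-likelihood test of edgeR on 366 present genes, over which p-values were adjusted by Benjamini and Hochberg's method. Values given for another scaling, method or set of samples come from other fits, with p-values adjusted over the genes of that fit, and are printed without SE. Present means above the lane threshold, 2 SD over the mean of the negative-control probes, in 40% of samples or more. Total counts of the 545 genes ran from 356398 to 1316430 at P14 and from 1025200 to 1534660 at P28. The strongest positive control, a spiked-in target, gave 9367 to 13062 counts at P14 and 24562 to 27713 at P28, so the ages did not overlap in this technical measure; values scaled to the positive controls alone are therefore given beside the results of the 5 genes that they change. The labels do not say whether the ages were hybridised in one run; where they were not, run and age cannot be told apart, for any value that sets P28 against P14. P14 samples 4 and 5, which had the lowest totals of all 12, were separated from the remaining P14 samples by the second principal component, which held 25.5% of the variance, and results that rest on them are given without them as well. Of 11 microglial and myeloid markers, 10 were in the table, and all 10 were above background in every sample.

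**Figure D1:**
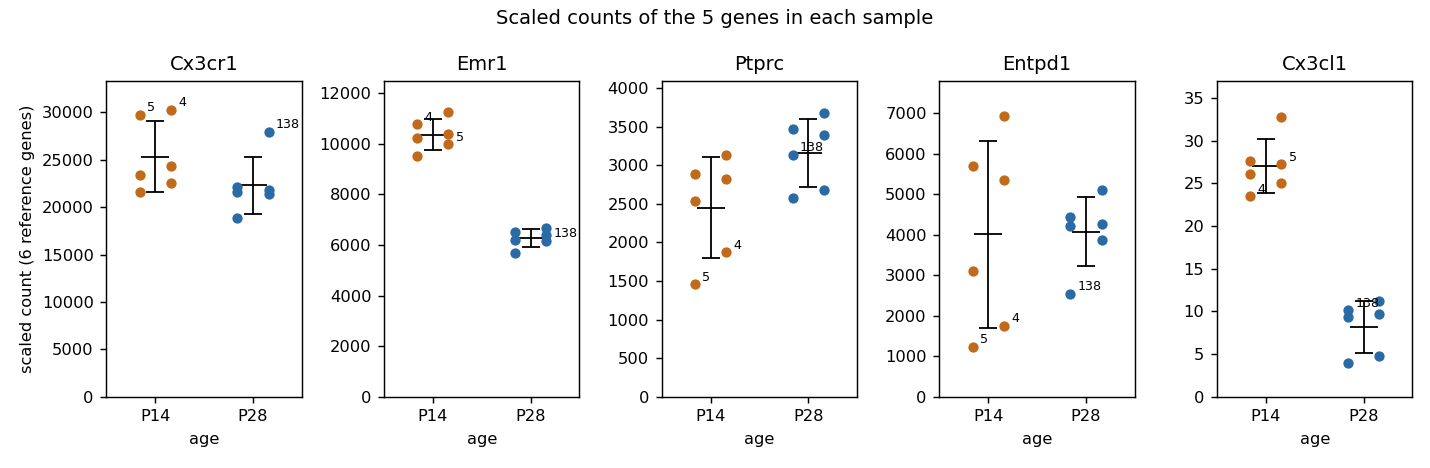
Scaled counts of the 5 genes in every sample on linear axes, with P14 in orange, P28 in blue and bars for mean ± SD of 6 samples. Emr1 and Cx3cl1 separate the ages, whereas Cx3cr1, Ptprc and Entpd1 overlap; P14 samples 4 and 5 and P28 sample 138 are numbered.

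Emr1 fell between the ages, with the ages clearly apart. Its scaled counts at P14 were 10769 in sample 4, 9986.9 in sample 5, 11282 in sample 16, 9530.4 in sample 25, 10379 in sample 61 and 10219 in sample 81. At P28 they were 6212 in sample 118, 5681.5 in sample 119, 6676 in sample 134, 6389.7 in sample 135, 6510.3 in sample 137 and 6178 in sample 138. Every P14 sample lay above every P28 sample, and the spread within an age was small, with a coefficient of variation of 5.89% at P14 and 5.50% at P28. The means were 10361 ± 611 and 6275 ± 345 (SD, n = 6 each), a log2 fold change of -0.72 ± 0.08, which is a change of -39.4% (adjusted p = 1.04e-05, edgeR). The fall was called under every scaling tried, from -0.60 with the authors' factors to -1.45 with positive controls alone, and was -0.72 without P14 samples 4 and 5. In the authors' deposited table, the ratio of P28 to P14 for Emr1 was 0.66. In pooled RNA of sorted cells, fewer cells that carry a transcript and less of it per cell cannot be told apart.

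Summed marker levels of some other cell types also differed between the ages, beside the fall of Emr1. Of 13 endothelial and mural markers, 7 were in the table and 4 present; the sum of the 7 ran from 3122 to 4897 scaled counts at P14 and from 6226 to 14688 at P28, with 2 members higher, 1 lower and Sele never above background. The higher sum came from Cd34, which went from 1198 ± 373 to 6972 ± 2568; Pdgfrb was called higher (494 to 660.4), Cdh5 lower (329 to 213), Pecam1 did not pass (1862 to 1385), and the median log2 fold change of the 4 was -0.0054. Of 8 dendritic cell markers, 6 were in the table and 4 present, with sums over the 6 of 945 to 1646 and 1901 to 2400 and 2 members higher (Itgax, Cd83). Sums overlapped between the ages for the 10 microglial and myeloid markers (237118 to 292318 at P14 and 256020 to 294890 at P28), the 16 T cell markers in the table (554 to 836 and 659 to 770), the 8 NK cell markers in the table (146 to 295 and 248 to 360) and the 7 monocyte and border macrophage markers in the table (300 to 496 and 382 to 525). Of the T cell markers 7 were present, with Cd5 and Cd96 called higher, Lck and Icos lower, and Cd3e, Cd2 and Cd28 never above background. Cd96 passed the lane threshold at P28 alone, so its call sets P28 against P14 counts that were all under background. Of the NK cell markers 5 were present, with Klrd1 called higher, and with Klrk1, Gzma and Il2rb called lower and above background in 0 of 6 samples at P28. The table held 6 neutrophil markers, of which 3 were present (sums over the 6 of 2875 to 8706 and 4189.5 to 8272); Csf3r was above background in all 12 samples (4626 ± 2404 and 5186 ± 1504, not called), Cxcr2 in 6 of 6 at P14 and 0 of 6 at P28, and S100a9 in none. Over all 366 present genes 16.7% were called higher and 13.9% lower, and nothing particular to a list is read from these counts. Calls of genes above background at 1 age alone are not read against those shares. Single genes had no overlap between the ages in 20.8% of cases, and no such share was computed for sums. The marker genes of this paragraph were named after their values were seen, and the part of other cells in the Emr1 result was not tested.

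Cx3cr1, the fractalkine receptor, differed less between the ages than between samples of one age. At P14 it had 30274 scaled counts in sample 4, 29753 in sample 5, 21564 in sample 16, 23450.5 in sample 25, 22599 in sample 61 and 24302 in sample 81. At P28 it had 21404 in sample 118, 18882 in sample 119, 22083 in sample 134, 21821 in sample 135, 21623 in sample 137 and 27936 in sample 138. The 3 high samples, P14 samples 4 and 5 and P28 sample 138, lay above all others, and the ages overlapped. The means were 25324 ± 3748 at P14 and 22292 ± 2999 at P28, a log2 fold change of -0.18 ± 0.12 that did not pass the test (adjusted p = 0.265, edgeR). An approximate 95% interval of that change ran from -0.45 to 0.08. Without P14 samples 4 and 5 the value was -0.04 (adjusted p = 0.745, edgeR). The test was passed when counts were scaled to total counts (-0.37, adjusted p = 0.0388) or to positive controls alone (-0.86, adjusted p = 0.0286), scales on which the median change of all genes was -0.14 and -0.74. As a share of all counts of the 545 genes, Cx3cr1 made up 3.01% in P14 sample 4 and 3.38% in P14 sample 5, 1.96% to 2.22% in the other P14 samples and 1.77% to 2.18% at P28. The authors' deposited table gives a ratio of 0.96 for Cx3cr1, with a p-value of 0.6549.

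Cx3cl1, the ligand, was near background at P14 and at background at P28. Its raw counts at P14 were 18 in sample 4, 11 in sample 5, 33 in sample 16, 29 in sample 25, 26 in sample 61 and 38 in sample 81, and 5 of these 6 exceeded the threshold of their lane. At P28 the raw counts were 13 in sample 118, 5 in sample 119, 10 in sample 134, 5 in sample 135, 12 in sample 137 and 10 in sample 138, and 0 of 6 exceeded it. All P14 counts were above the mean of the 8 negative probes of their lane, at 1.54 to 3.05 times it, and all P28 counts were below it, at 0.29 to 0.95 times. The scaled counts did not overlap between the ages, at 23.5 to 32.8 for P14 and 3.94 to 11.2 for P28. Since no P28 sample was above background, only a bound on the means can be given. On the means, Cx3cl1 was at least 1.06-fold lower at P28. This sets its P14 mean of 27.0 ± 3.20 against the mean scaled lane threshold of 25.5 at P28. P14 samples 4 (23.5) and 61 (25.0) lay under that 25.5, and scaled P28 thresholds ran up to 28.7 in sample 134. A fall beyond the spread of the samples is therefore not set by this bound. The fitted log2 fold change of -1.73 ± 0.21 passed the edgeR test, but it describes counts under background and is neither a measure of size nor a test of that bound. Cx3cl1 was called present through its P14 samples alone, with none to spare, and it dropped out of the tested genes when any of 5 P14 samples (4, 16, 25, 61 or 81) was left out.

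**Figure D2:**
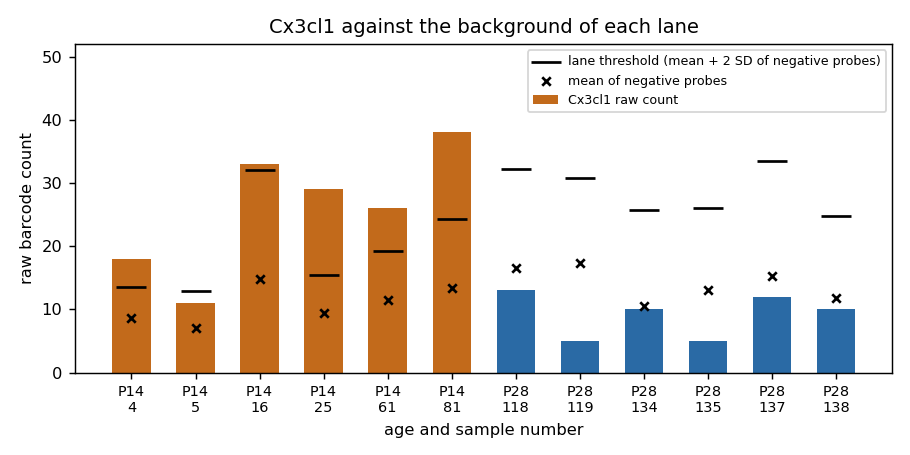
Raw Cx3cl1 barcode counts in each sample (bars, P14 orange and P28 blue) with the mean of the negative probes of the lane (crosses) and the lane threshold (dashes). In 5 of 6 P14 samples the bar passes the dash, and at P28 every bar ends below the cross.

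Of the 5 genes, Emr1 and Cx3cl1 were called between the ages. Of the 4 genes above background at both ages, 1 (Emr1) was called lower and 0 higher, where 13.9% of the 366 genes were called lower, 16.7% higher and 30.6% in either direction. Cx3cl1 was called lower as well, but it entered the test only through the age at which it was high, so its call is not read against those shares. Emr1 was also the only one of the 4 with no overlap between the ages, which 20.8% of the 366 genes had. Of 14 listed markers of neurons, astrocytes and oligodendrocytes, 3 were in the table, the myelin gene Mbp and the surface genes Ncam1 and Thy1 (the last 2 named after their values were seen), and their summed scaled count ran from 191 to 356 at P14 and from 232 to 1493 at P28. Mbp was called higher at P28 (1.36 ± 0.43, adjusted p = 0.0241, edgeR), a call lost in 13 of 30 alternatives, and Ncam1 and Thy1 did not pass. P28 sample 118 held the highest Mbp (1091) and Ncam1 (383), against Mbp values of 126 to 272 at P14 and 189 to 724 in the other P28 samples. Its Cx3cl1 count of 13 was the highest raw count at P28, in the sample with the highest total (1534660). Its scaled Cx3cl1 count of 9.33 lay below those of P28 samples 134 (11.2), 137 (9.71) and 138 (10.1). Like all P28 counts, the raw count of 13 lay below the mean of the negative probes of its lane. The part of other neural cells in the Cx3cl1 signal was not tested.

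Ptprc was lowest in P14 samples 4 and 5. At P14 it had 1870.5 scaled counts in sample 4, 1457 in sample 5, 3137 in sample 16, 2537.5 in sample 25, 2827 in sample 61 and 2883 in sample 81. At P28 it had 3386 in sample 118, 3473 in sample 119, 2579.8 in sample 134, 2682 in sample 135, 3676 in sample 137 and 3131 in sample 138. P14 samples 16, 61 and 81 lay within the P28 range, and samples 4, 5 and 25 lay below it. The means were 2452 ± 653 and 3155 ± 443, a log2 fold change of 0.36 ± 0.17 that did not pass (adjusted p = 0.127, edgeR). Without P14 samples 4 and 5 it was 0.15 (adjusted p = 0.311, edgeR). The direction and the call of Ptprc depended on the scale: it was 0.49 with the authors' factors and 0.45 with all 14 reference genes, both past the threshold (adjusted p = 0.0259 and 0.0208, edgeR), and -0.44 with positive controls alone (adjusted p = 0.326). The authors' deposited table gives a ratio of 1.41 for Ptprc, with a p-value of 0.007.

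**Figure D3:**
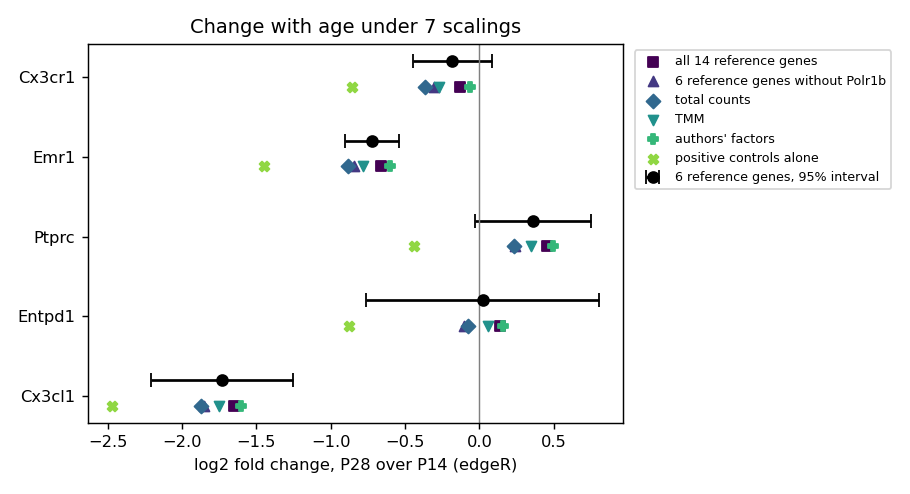
Log2 fold change of each gene, P28 over P14, with 6 reference genes (black, approximate 95% interval) and under 6 other scalings (coloured). Emr1 and Cx3cl1 lie below 0 under all 7; Ptprc turns from 0.36 to -0.44 and Entpd1 from 0.02 to -0.88 with positive controls alone, Entpd1 is also below 0 without Polr1b (-0.10) and with total counts (-0.08), and the Cx3cl1 values describe counts under background at P28.

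Entpd1 had the widest spread of the 5 genes at P14, and its means were close. At P14 it had 1750.5 scaled counts in sample 4, 1234 in sample 5, 6928 in sample 16, 3095 in sample 25, 5684 in sample 61 and 5345 in sample 81. At P28 it had 4435 in sample 118, 4259.8 in sample 119, 4219 in sample 134, 3867 in sample 135, 5091 in sample 137 and 2544 in sample 138. The highest P14 sample exceeded the lowest 5.61-fold, against 2.00-fold at P28, and P14 samples 4 and 5 lay below the whole P28 range while P14 samples 16, 61 and 81 lay above it. The means were 4006 ± 2313 and 4070 ± 849, a log2 fold change of 0.02 ± 0.35 (adjusted p = 0.976, edgeR) with an approximate 95% interval from -0.76 to 0.80. Without P14 samples 4 and 5 the value was -0.37 (adjusted p = 0.18, edgeR), and with positive controls alone it was -0.88 (adjusted p = 0.118, edgeR). The authors' deposited table gives a ratio of 1.12 for Entpd1, with a p-value of 0.6344.

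The samples with the most Cx3cr1 had the least Entpd1. P14 samples 4 and 5 and P28 sample 138 held the highest Cx3cr1 and the lowest Entpd1 of their ages. Ptprc was also lowest in P14 samples 4 and 5, but P28 sample 138, at 3131, was in the middle of its age. Emr1 did not take part, since these 3 samples lay inside the Emr1 range of their ages. Over the 6 samples of P14, log2 scaled counts of Cx3cr1 and Entpd1 had a Pearson r of -0.93, Cx3cr1 and Ptprc -0.93, and Ptprc and Entpd1 0.98; at P28 the values were -0.82, -0.22 and 0.28. Over all 12 samples they were -0.81, -0.76 and 0.82, and over the 10 left without P14 samples 4 and 5 they were -0.49, -0.31 and 0.23. Over the 9 samples left without P14 samples 4 and 5 and P28 sample 138, the same values were -0.0031, -0.60 and 0.40. Over the 5 P28 samples left without sample 138 they were 0.04, -0.50 and 0.75. Pooled over the ages, no inverse relation of Cx3cr1 and Entpd1 was left without those 3 samples. Such pooled values also carry the difference between the ages, and r was not computed within the other P14 samples alone. The points share the library and the scale factor, and the correlations are descriptions. P14 samples 4 and 5 also had the lowest total counts of all 12 samples, and P28 sample 138 had a total in the middle of its age. The part of input or depth in this pattern was not tested.

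**Figure D4:**
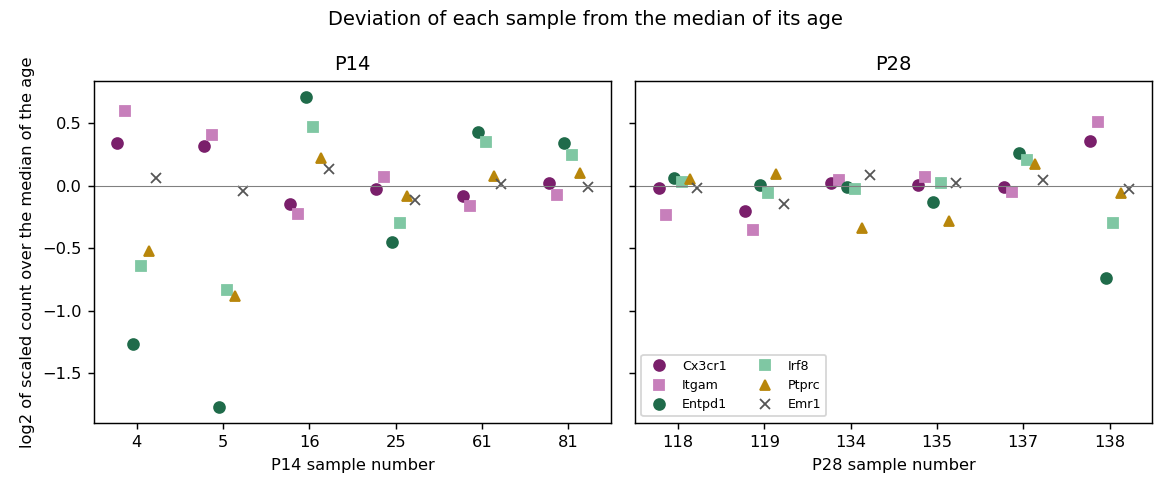
Log2 of each sample's scaled count over the median of its age for Cx3cr1, Entpd1, Ptprc and Emr1 and for Itgam and Irf8, a gene among the 3 most like Cx3cr1 and a gene among the 3 most like Entpd1. In P14 samples 4 and 5 and P28 sample 138, Cx3cr1 and Itgam lie above 0 and Entpd1 and Irf8 below it. Itgam and Irf8 were picked by their likeness over these same samples, so they give no separate support. Samples have no order along the axis.

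Ratios between genes within a sample are free of any scale factor, and 2 of them, both with Emr1, had no overlap between the ages. The log2 ratio of Cx3cr1 to Emr1 went from 1.28 ± 0.24 at P14 to 1.82 ± 0.18 at P28 (SD, n = 6 each), a 1.46-fold higher ratio, with P14 samples between 0.93 and 1.57 and P28 samples between 1.73 and 2.18. The log2 ratio of Emr1 to Ptprc lay between 1.83 and 2.78 at P14 and between 0.71 and 1.37 at P28, a ratio 0.46 times as high, with no overlap either. Of the 6 ratios among Cx3cr1, Emr1, Ptprc and Entpd1, these 2 had no overlap. Ratios to Cx3cr1 had no overlap for 17.0% of the other 365 present genes, ratios to Ptprc for 21.4%, ratios to Entpd1 for 4.38% and ratios to Emr1 for 57.5%. Most present genes thus had no overlap in their ratio to Emr1, and nothing particular to these 2 ratios is read from it. The remaining ratios overlapped, among them Emr1 to Entpd1 (1.63 ± 0.98 and 0.65 ± 0.34) and Cx3cr1 to Ptprc (3.41 ± 0.63 and 2.82 ± 0.31). The log2 ratio of Cx3cr1 to Entpd1 differed by -0.43 between the ages and turned to 0.29 without P14 samples 4 and 5; without P28 sample 138 as well it was 0.094. Cx3cl1 was left out of the ratios because its P28 counts were under background. Capture differs between probes, so the level of a ratio has no meaning of its own and only its change is read. No test was made on the ratios.

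**Figure D5:**
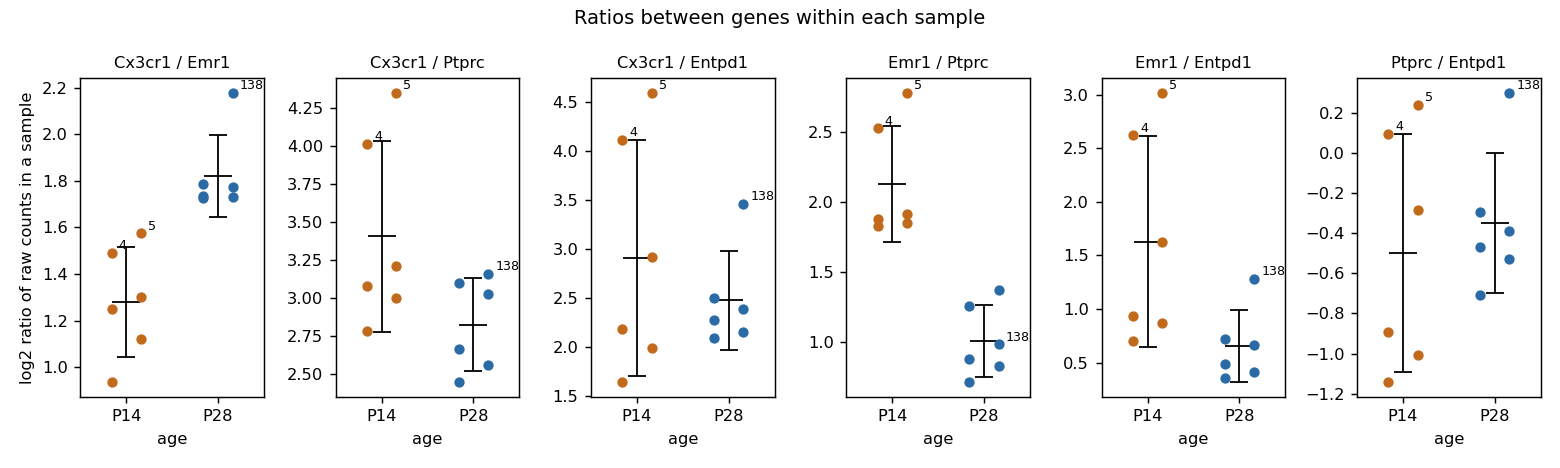
Log2 ratio of raw counts between pairs of genes in each sample, P14 in orange and P28 in blue, with mean ± SD of 6 samples. Cx3cr1 over Emr1 and Emr1 over Ptprc separate the ages without overlap, and the other 4 ratios overlap.

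The genes whose log2 scaled counts followed each member best over the 12 samples differed by member. For Cx3cr1 they were Itgam, the integrin chain CD11b (Pearson r = 0.97), Pecam1, the adhesion molecule CD31 (0.95), and Tgfbi, a secreted matrix protein induced by TGF-beta (0.95); with each age centred on its own mean, r stayed at 0.96, 0.94 and 0.93. Itgam had 104602 scaled counts in P14 sample 4, 91769 in P14 sample 5 and 82378 in P28 sample 138, against 59088 to 72583 in the other P14 samples and 45185 to 60742 in the other P28 samples. The same 3 samples were high in Itgam and Cx3cr1. Itgam was picked by its likeness to Cx3cr1 over these same samples, so this is a description and no separate support. For Entpd1 the genes were Casp8, the initiator caspase (0.99), Fcgr2b, the inhibitory Fc receptor (0.98), and Irf8, a transcription factor that microglia depend on (0.98), with 0.99 for each after centring. Irf8 had 1302 scaled counts in P14 sample 4, 1138 in P14 sample 5 and 1785 in P28 sample 138, the lowest values of their ages. It too was picked by its likeness, to Entpd1, over these samples.

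For Ptprc the closest genes were Ncf4, a subunit of the phagocyte NADPH oxidase (0.95), the tetraspanin Cd9 (0.93) and the transcription factor Irf4 (0.92). Without P14 samples 4 and 5 these values were 0.68, 0.71 and 0.62 over 10 samples. For Emr1 they were Fcgrt, the neonatal Fc receptor (0.98), Fcer1g, the signalling chain of activating Fc receptors (0.98), and Bax, an activator of apoptosis (0.97). After each age was centred these values were 0.59, 0.44 and 0.37, so the likeness to Emr1 lay mostly in the difference between the ages. For Cx3cl1 they were Cxcr2, a chemokine receptor (0.94), Bax (0.94) and Emr1 (0.93), again with lower values after centring (0.56, 0.48 and 0.42). Cx3cl1 and Cxcr2 were both above background in 0 of 6 samples at P28. The values for Cx3cl1 therefore set counts near background at P14 against counts under it at P28, and no shared course of samples is read from them.

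Partner genes, listed by role, give the setting of these receptors. Of 17 present genes of myeloid and microglial identity, 3 rose, 0 fell and 14 did not pass, with a median log2 fold change of 0.13 against 0.0026 for all 366 genes. The 3 of 17 are close to the 16.7% of all 366 genes called higher, and for the lists that follow too the counts stand beside 16.7% higher and 13.9% lower over all genes, with nothing particular to a list read from them. Those that rose were Trem2, a lipid-sensing receptor (0.71 ± 0.13, adjusted p = 0.00069, edgeR), Cd9 (0.54 ± 0.16) and Runx1, a myeloid transcription factor named after its values were seen (0.47 ± 0.12); with positive controls alone these were -0.065, -0.25 and -0.31. Csf1r, the CSF1 receptor that microglia need to survive (0.29 ± 0.17), Itgam (-0.37 ± 0.17), Tyrobp, the adaptor of Trem2 (0.04 ± 0.19), and Irf8 (0.13 ± 0.21) did not pass. With positive controls alone Itgam was at -1.03 and called (adjusted p = 0.0108, edgeR), Csf1r was at -0.53, Tyrobp at -0.78 and Irf8 at -0.70. Itgam was also called without Polr1b (-0.49), with total counts (-0.57), without P28 sample 138 (-0.49) and without P14 samples 4 and 5 and P28 sample 138 (-0.26); Csf1r was called with all 14 reference genes (0.38). Beside Emr1, 10 further macrophage surface receptors were present, and 0 rose and 0 fell at an FDR of 0.05, with a median of 0.0046; without P14 samples 4 and 5, 2 of them were called lower.

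Of 13 present chemoattractant receptors beside Cx3cr1, 2 rose and 1 was called lower, with a median of -0.17. Ccr6 (0.47 ± 0.10) and Cmklr1, the chemerin receptor (0.50 ± 0.13), both named after their values were seen, rose, and Cxcr2, above background at P14 alone, was the gene called lower; with positive controls alone Ccr6 was at -0.30 and Cmklr1 at -0.28. Of 7 present signal transducers downstream of Cx3cr1, 1 rose and 2 fell, with a median of -0.16. These were the NF-kB subunit Rela (0.47 ± 0.15, and -0.32 with positive controls alone), the NF-kB subunit Nfkb1 (-0.68 ± 0.18) and the integrin chain Itgb1 (-0.58 ± 0.15), also named after their values were seen.

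Of 12 present kinases, phosphatases and partners of CD45, 1 rose and 2 fell, with a median of -0.05. The Src-family kinases Lck and Fyn, substrates of CD45 that were named after their values were seen, fell. Lck went from 98.9 ± 15.4 to 49.5 ± 8.05 scaled counts (-1.01 ± 0.15, adjusted p = 0.000128, edgeR) and Fyn from 859 ± 283 to 309 ± 42.2 (-1.48 ± 0.20, adjusted p = 6.62e-05, edgeR). Ptpn6, the phosphatase SHP-1, rose from 5703 ± 318 to 7803 ± 949 (0.45 ± 0.10, adjusted p = 0.00276, edgeR) and was at -0.26 with positive controls alone. Syk, a kinase downstream of immune receptors, did not pass (-0.03 ± 0.11, and -0.80 with positive controls alone). Cd22, a lectin that can bind CD45, was above background in 1 P14 sample and 0 P28 samples. Of the purinergic list around Entpd1, 2 of 7 genes were in the table and 0 were present; Nt5e, which encodes the enzyme that acts on the product of CD39, was above background in 0 of 12 samples.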

How the data were processed

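Each sample gave 2 ng of RNA, which was reverse transcribed and put through 5 PCR rounds before hybridisation, per the labels' protocols. The deposited raw table holds whole barcode counts for 573 probes (545 immune genes, 14 reference genes, 8 negative and 6 positive controls), and PCR copies among them do not count separate molecules. A second deposited table holds a score per gene, values that the authors scaled to positive controls and reference genes, per the design text, with the authors' fold as a ratio of means and, per the file headers, the p-value of a t-test. No source used here names the counting software. Columns were matched to samples by the number in the title, and 0 were left unmatched.

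Counts were divided by the geometric mean of Alas1, Gapdh, Oaz1, Polr1b, Sdha and Tbp, which the authors picked as stable with age per the design text, set to a geometric mean of 1 over the 12 samples, and fitted in R 4.3.3 by the quasi-likelihood functions of edgeR 4.0.16, with age as the only term and an FDR of 0.05. Approximate 95% intervals use the SE and 10 degrees of freedom. The bound for Cx3cl1 sets the P14 mean against the mean scaled lane threshold at P28. Correlations use log2 scaled counts with a pseudocount of 1. Alternatives were DESeq2 1.42.0, limma 3.58.1, other scalings and filters, and each sample left out. The named genes are the 5 members, 3 most alike genes per member, and partner genes chosen by name; the partners Csk, Lyn, P2rx7 and Adora2a were not analysed here. The members and lists were chosen with earlier results of these data known.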

Additional observations from a re-analysis of the deposited data

Results flagged for a closer look

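In 22 groups of 6 samples (each of the 5 genes and 6 ratios at each age), 3 values lay far from the other 5 of their group, by a gap of more than 0.625 of the whole range; about 5% of groups do so by chance, and the 3 values share a sample and a gene. All were in P28 sample 138. Its Cx3cr1 level was 27936 scaled counts, against 18882 to 22083 in the other P28 samples. Its log2 ratio of Cx3cr1 to Emr1 was 2.18, against 1.73 to 1.78. Its log2 ratio of Cx3cr1 to Entpd1 was 3.46, against 2.09 to 2.50. The cause was not tested.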

How the results depend on the processing

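The call of Emr1 held in all 30 alternatives run for it. The fitted change of Cx3cl1, present through P14 alone, was below 0 in all 21 that tested it. Its counts were under background in every P28 sample, so that sign is not read as support for a fall. Cx3cl1 could not be tested in 5 of the 12 fits that left out a sample. It could also not be tested on the authors' values, or with the filter that asked for background to be exceeded in all 12 samples. Cx3cr1 passed with total counts (-0.37, adjusted p = 0.0388) and positive controls alone (-0.86), and Ptprc passed with all 14 reference genes (0.45), TMM (0.35, adjusted p = 0.048), the authors' factors (0.49), DESeq2 with its own size factors (0.34), limma on the authors' values (0.52) and the methods' t-test with equal or unequal variance (0.49 for both, adjusted p = 0.0252 and 0.0312); the cause was not tested. Leaving out 1 sample gave -0.26 to -0.13 for Cx3cr1, 0.25 to 0.44 for Ptprc (adjusted p = 0.076 to 0.232), -0.16 to 0.25 for Entpd1, -0.75 to -0.70 for Emr1 and 97 to 120 genes called, against 112. The split of higher to lower calls was 61 to 51, but 8 to 127 with positive controls alone, 51 to 96 with total counts, 93 to 36 with the authors' factors, 50 to 74 when Polr1b was dropped, 89 to 42 with 14 reference genes, 89 to 26 with limma on the authors' values and 67 to 85 without P14 samples 4 and 5. With positive controls alone, Trem2 (-0.065), Ptpn6 (-0.26), Runx1 (-0.31), Cmklr1 (-0.28), Ccr6 (-0.30), Rela (-0.32) and Cd9 (-0.25) turned negative. Leaving out 1 sample gave Ncam1 values from -1.23, without P28 sample 118, to 0.76. Without P28 sample 138 as well as P14 samples 4 and 5, an alternative chosen after seeing the data, Cx3cr1 was at -0.12, Ptprc at 0.15 and Entpd1 at -0.27. Counts near the lane threshold limit what can be said of Cx3cl1. No paired analysis was possible because the ages share no sample number.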
